A study of Rattus norvegicus with 30 samples.

Results

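A set of 5 genes of glutamate transport and metabolism was followed after stroke in rat microglia, the immune cells that live in brain tissue. They encode the excitatory amino acid transporters Slc1a3 and Slc1a2, the neutral amino acid exchanger Slc1a5, the cystine/glutamate antiporter light chain Slc7a11 and glutamine synthetase, Glul. A gene was included where the array's annotation gives its symbol to a probe set, and each was represented by the probe set chosen by the highest mean over the 30 arrays. Of the 5 genes, 4 had a probe set, and each of these had 1 (10821824 for Slc1a3, 10838130 for Slc1a2, 10704505 for Slc1a5 and 10823057 for Slc7a11), so the mean decided nothing. No probe set is listed for Glul in the annotation used, and it is not analysed here. The annotation named 14506 genes in all, of which 11675 were tested.

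Glutamate is the main excitatory transmitter of the brain, and its build-up outside cells after ischaemia injures neurons. It is cleared by sodium-coupled transporters of the Slc1 family, Slc1a3 and Slc1a2, which are best known in astrocytes and which are also found in activated microglia. Slc7a11 works against that clearance: it exports glutamate in exchange for cystine, which the cell reduces to cysteine for glutathione. Slc1a5 exchanges glutamine and other neutral amino acids, glutamine being both the precursor and the product of glutamate.

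The arrays came from male rats aged 3 or 12 months. Stroke was made by closing the middle cerebral artery for 75 min, and microglia were taken on day 3 or day 14 from the injured (ipsilateral) and from the opposite (contralateral) hemisphere of each animal; sham rats of each age were the controls. This gave 10 groups of 3 arrays. The labels give the strain as Wistar Kyoto in one field and as spontaneously hypertensive rats in the protocols, and the isolation of the cells and the hemisphere of the sham cells are not given in the sources used here. The design addresses the course of microglial expression between the days and its dependence on age.

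Values are log2 signals after RMA, so a difference of 1 is a 2-fold difference. Array medians ran from 5.06 to 5.24. The SD over the probe sets of an array was 1.79 to 1.93 on the 3-month stroke arrays and 1.94 to 2.05 on all others. The scale of the 3-month stroke arrays was thus narrower than that of their sham. The 30th percentile of an array lay at 4.07 to 4.35, and a group with no array above it is called dim and gives only an upper bound. Of the 11 microglial markers with a probe set (Tmem119, P2ry12, Csf1r and others), 10 or 11 lay above that percentile on every array. The mean of 9 monocyte and macrophage markers was 6.43 to 7.88 on the injured day 3 arrays, 5.88 to 6.28 on the injured day 14 arrays and 5.37 to 5.69 on all other arrays, while the mean of the microglial markers was 9.49 to 9.92 on injured arrays and 9.94 to 10.41 on the others. The mean of 5 border-associated macrophage markers was 6.94 to 7.65 on the injured day 3 arrays and 5.21 to 6.55 on all others, and that of 7 neutrophil markers 6.36 to 7.70 against 5.48 to 7.07. With RNA of a whole cell isolate, a change in the share of a cell type and a change in RNA per cell cannot be told apart. At 3 months the sham, day 3 and day 14 samples carry different numbers in their sample codes, as do the 2 ages, and all 12-month samples share 1 number. What the number stands for is unknown here: differences from sham and between days at 3 months, and between the ages, cannot be told apart from that number. Both hemispheres of an animal share the number.

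**Figure D1:**
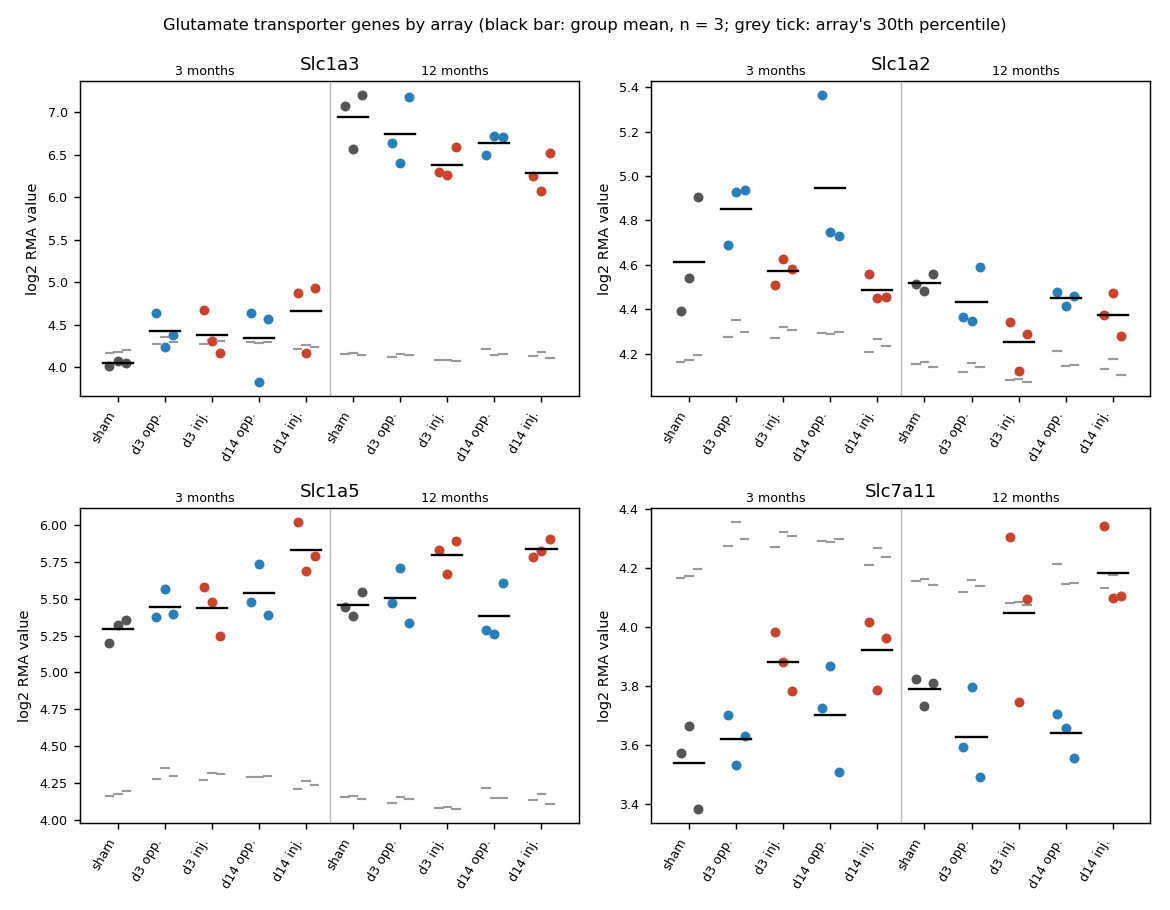
Log2 RMA values of the 4 genes on each of the 30 arrays (y axis) in the 10 groups (x axis; d3 and d14, days 3 and 14; opp. and inj., opposite and injured hemisphere). Points are arrays, black bars group means (n = 3) and grey ticks the 30th percentile of each array. Slc1a3 lies at 6.08 to 7.20 on the 12-month arrays and at 3.83 to 4.93 on the 3-month arrays; Slc7a11 lies above the grey ticks on 3 arrays.

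Slc1a3, which imports glutamate with sodium, had the largest difference of the 4 genes, and it lay between the ages. In 3-month sham microglia its values were 4.02, 4.07 and 4.05, all dim, and in 12-month sham microglia 7.07, 6.57 and 7.20. The 12-month sham mean of 6.95 ± 0.33 (SD, n = 3) exceeded the 3-month mean of 4.05 ± 0.03 (n = 3) by 2.90 ± 0.21 on the log2 scale (SE; limma, adjusted p = 3.15e-10), or by at least 2.77 when the 3-month arrays are set at their percentile, which is at least 6.81-fold. All 3 arrays of one age lay above all 3 of the other. Between the shams of the 2 ages 13.0% of all genes tested were called (adjusted p under 0.05), 1 of the 4 transporter genes among them. By size and by p Slc1a3 ranked 1 of 11675 genes in this comparison, the next by size being Chad at 2.04 and Pdk4 at -1.95.

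The same gap was seen in every stroke group, given here as a description. The 12-month mean exceeded the 3-month mean by 1.63 (injured hemisphere, day 14) to 2.32 (opposite hemisphere, day 3). Over all conditions the 15 arrays from 12-month rats lay at 6.08 to 7.20 and the 15 from 3-month rats at 3.83 to 4.93, with no overlap. Ordered by mean, the groups ran from the 3-month sham at 4.05 to the injured hemisphere on day 14 at 3 months at 4.66, then from the injured hemisphere on day 14 at 12 months at 6.28 to the 12-month sham at 6.95; neighbours in this order overlapped except at the step from 4.66 to 6.28.

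Slc1a3 is abundant in astrocytes, so the astrocyte markers are set beside it. Of 8 astrocyte markers tested, 0 were called between the shams of the 2 ages (limma; 0 of 8 at unadjusted p under 0.05), with changes from -0.36 (Aldoc) to 0.13 (Gfap) and a median of 0.01 beside 0.01 for all genes. The mean of the 10 astrocyte markers with a probe set lay at 4.77 to 5.46 on the 3-month arrays and at 4.62 to 4.92 on the 12-month arrays. The part of astrocytes in the level of Slc1a3 was not tested.

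**Figure D2:**
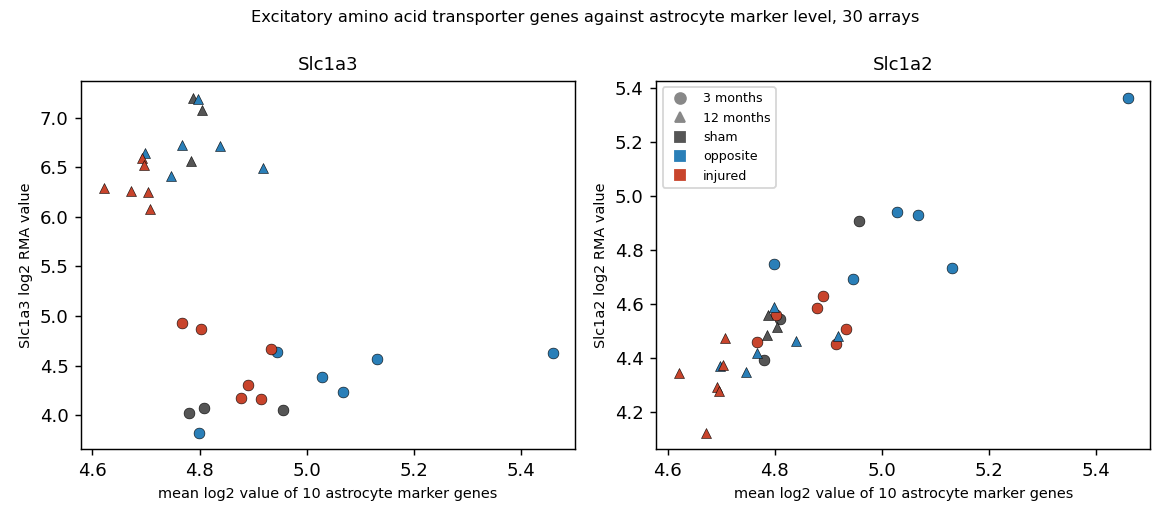
Log2 RMA value of Slc1a3 (left, y axis) and Slc1a2 (right, y axis) against the mean log2 value of 10 astrocyte marker genes on the same array (x axis), 1 point per array; circles are 3-month and triangles 12-month rats, grey sham, blue opposite and red injured hemisphere. The 12-month arrays stand above the 3-month arrays in Slc1a3 at marker means of 4.62 to 4.92; the array with the highest marker mean, 5.46, also has the highest Slc1a2 value, 5.36.

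For reference, the 250 bases before the most upstream listed start of Slc1a3 are shown as the gene that separated the ages (RefSeq, GRCr8, chr2:59557809-59558058, minus strand). Searched on both strands were the TATA box (TATAAA), the CCAAT box, the GC box (GGGCGG), the core of the antioxidant response element (TGACNNNGC) and the core of the amino acid response element (TGATGNAA). Capitals would mark a match, and the window holds none. Of 33469 such rat windows, 12.9% hold TATAAA, 34.0% CCAAT, 30.5% GGGCGG, 10.1% TGACNNNGC and 3.4% TGATGNAA.
Slc1a3: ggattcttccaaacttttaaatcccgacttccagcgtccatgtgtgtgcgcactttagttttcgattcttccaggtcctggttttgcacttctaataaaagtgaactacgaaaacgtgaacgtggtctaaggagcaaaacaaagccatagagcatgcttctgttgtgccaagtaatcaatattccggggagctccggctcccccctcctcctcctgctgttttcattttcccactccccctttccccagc

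Compared with sham, from which the stroke samples differ in code number at 3 months, Slc1a3 went different ways at the 2 ages. At 12 months it was lower in the injured hemisphere than in sham on day 3 (6.29, 6.26 and 6.59; change -0.56 ± 0.21 SE, limma, adjusted p = 0.0336) and on day 14 (6.25, 6.08 and 6.52; -0.66 ± 0.21, adjusted p = 0.0222). The day 14 arrays did not overlap with sham, whereas the highest day 3 array, at 6.59, lay above the lowest sham array, at 6.57. At 3 months the injured arrays on day 14 were 4.87, 4.16 and 4.93, higher than sham by 0.61 ± 0.21 (limma, adjusted p = 0.0231). On day 3 the difference was 0.33 ± 0.21 (adjusted p = 0.176). With the dim sham set at its percentile these differences are 0.48 and 0.20. That setting does not allow for the narrower scale of the 3-month stroke arrays. The percentile lay at 4.16 to 4.20 on the sham, 4.27 to 4.32 on the injured day 3 and 4.21 to 4.27 on the injured day 14 arrays. Leaving out 1 array ended each of the 3 calls: adjusted p reached 0.152 and 0.119 at 12 months (days 3 and 14) without sham replicate 3, and 0.129 at 3 months without injured replicate 3. The same held without sham replicate 1 in each of the 3, without injured replicate 1 in each, without injured replicate 2 at 12 months on either day, and without sham replicate 3 at 3 months. A trended, robust prior also ended the 12-month call on day 3 (adjusted p = 0.0508).

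The difference between the ages in the change from sham was tested with a contrast added after these values had been seen. The change at 12 months minus the change at 3 months was -0.90 ± 0.30 on day 3 (limma, adjusted p = 0.0126; 51.5% of genes called) and -1.27 ± 0.30 on day 14 (adjusted p = 0.0051; 12.4% of genes called). With the dim 3-month sham set at its percentile the differences are -0.77 and -1.14, which were not tested. On day 3 the median of this contrast over all genes was 0.14, and 0.03 after the arrays were quantile normalized again.

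The opposite hemisphere held values of 4.64, 4.23 and 4.38 on day 3 and 4.63, 3.83 and 4.57 on day 14 at 3 months, and of 6.64, 6.41 and 7.18 and of 6.49, 6.72 and 6.72 at 12 months. These overlapped with the injured side in each comparison, and none of the 4 differed from sham by the test (0.37 and 0.29 at 3 months, -0.20 and -0.30 at 12 months). Between hemispheres of the same animals Slc1a3 was not called: the injured minus the opposite side was -0.04 and 0.32 at 3 months on days 3 and 14, and -0.36 and -0.36 at 12 months (SE 0.21 each; adjusted p 0.942, 0.317, 0.211 and 0.282). Animal by animal it was lower on the injured side in 6 of 6 rats at 12 months, by 0.15 to 0.64, and higher in 5 of 6 at 3 months. With the animal as a fixed block over the stroke arrays, the SE fell to 0.11 and adjusted p to 0.0175 and 0.0283 at 12 months (days 3 and 14) and to 0.0473 at 3 months on day 14, while day 3 at 3 months stayed at 0.874. The difference of the hemisphere effect between the ages on day 14, -0.68 ± 0.30, was not called with or without the animal block (adjusted p = 0.172 and 0.497).

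The 3 genes most like Slc1a3 over the 30 arrays by Pearson's r were Ino80e (0.92), Cyba (0.91) and Cnpy3 (0.90). Within the 15 arrays of 1 age these fell to 0.60, 0.34 and 0.10 at 3 months and 0.41, -0.15 and 0.18 at 12 months, so the likeness lay mostly in the step between the ages.

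Slc1a2, the other glutamate clearance transporter, gave low values in all groups. Its values ran from 4.12 to 5.36, above the 30th percentile on all 30 arrays. In the shams it was 4.39, 4.54 and 4.91 at 3 months and 4.51, 4.48 and 4.56 at 12 months, which differed by -0.10 ± 0.13 (adjusted p = 0.701). Its 2 highest group means were those of the opposite hemisphere at 3 months, 4.85 ± 0.14 on day 3 and 4.95 ± 0.36 on day 14 (SD, n = 3), and its lowest was the injured hemisphere at 12 months on day 3, 4.25 ± 0.12. Each group overlapped with the next in order of mean.

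Between hemispheres Slc1a2 was lower on the injured side at 3 months on day 14: 4.56, 4.45 and 4.46 against 5.36, 4.75 and 4.73, with no overlap (-0.46 ± 0.13, limma, adjusted p = 0.00939). The other 3 comparisons gave -0.28, -0.18 and -0.08 (3 months day 3, 12 months days 3 and 14; adjusted p = 0.129, 0.312 and 0.761), and the injured side was lower in 11 of 12 animals. The call rested on opposite replicate 1, at 5.36: without it the difference was -0.25 (adjusted p = 0.132), and fitted to the compared groups alone it had an adjusted p of 0.083. The opposite hemisphere on day 14 also exceeded the 3-month sham, by 0.33 ± 0.13 (adjusted p = 0.0378), and by 0.13 without that array (adjusted p = 0.419); this call also ended without sham replicate 1 (0.224) and without sham replicate 2 (0.113).

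That array stood apart in the markers of other brain cells. Its mean over the astrocyte, oligodendrocyte and neuron markers was 5.46, 5.75 and 4.86, the highest of the 30 arrays in each. S100b, an astrocyte marker, was 8.03 on it and 5.27 to 6.27 on all other arrays, and Aldoc was 7.18 against 4.76 to 5.98. In the same hemisphere comparison 2 of 8 astrocyte, 2 of 8 oligodendrocyte and 2 of 6 neuron markers were called, where 20.3% of all genes were, and all were lower on the injured side: S100b by -1.08, Aldoc by -0.78, Mobp by -0.97, Cnp by -0.44, Snap25 by -0.85 and Stmn2 by -0.36. Without that array the calls of Mobp (-0.73), Cnp (-0.44) and Snap25 (-0.49) held and those of S100b, Aldoc and Stmn2 did not. The 3 genes most like Slc1a2 over the 30 arrays were Camk2a (r = 0.90), a kinase of neurons, Sult4a1 (0.86) and Pcp4 (0.86), and Camk2a too was highest on that array, at 6.63 against 4.75 to 5.63 elsewhere. The part of other brain cells in the level of Slc1a2 was not tested.

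Slc1a5, the glutamine exchanger, was higher in the injured than in the opposite hemisphere in 1 of 4 comparisons, and higher than in sham in 3 of 4. At 12 months on day 14 it was 5.79, 5.82 and 5.91 on the injured side and 5.29, 5.26 and 5.61 on the opposite side, a difference of 0.45 ± 0.11 without overlap (limma, adjusted p = 0.00475), or 1.37-fold. The other hemisphere differences were -0.01 at 3 months on day 3 (adjusted p = 0.97), 0.30 at 3 months on day 14 (0.0635) and 0.29 at 12 months on day 3 (0.0552). The last passed the threshold in 6 of 16 alternatives, among them the animal as a random block (0.0458). It did not in 10, among them the animal as a fixed block, and its adjusted p ran from 0.00674 to 0.25.

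Against sham of the same age Slc1a5 was higher in the injured hemisphere in 3 of 4 comparisons. At 3 months on day 14 the arrays were 6.02, 5.69 and 5.79 against 5.20, 5.32 and 5.36, a difference of 0.54 ± 0.11 (adjusted p = 4.01e-04). At 12 months the arrays were 5.83, 5.67 and 5.89 on day 3 against 5.44, 5.38 and 5.54, a difference of 0.34 ± 0.11 (adjusted p = 0.0197), and 0.38 ± 0.11 on day 14 (adjusted p = 0.0159). In each of these 3 the groups did not overlap. Day 3 at 3 months gave 0.14 (adjusted p = 0.29). The call at 12 months ended on day 3 without sham replicate 1, sham replicate 2, injured replicate 1 or injured replicate 3 (adjusted p up to 0.0907), and on day 14 without sham replicate 2 or injured replicate 3 (up to 0.0731).

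From day 3 to day 14 Slc1a5 rose in the injured hemisphere at 3 months, from 5.58, 5.48 and 5.25 to the values above (0.40 ± 0.11, adjusted p = 0.00882), and differed by 0.04 at 12 months (adjusted p = 0.848). The rise ended as a call without day 3 replicate 3 (0.0705) or day 14 replicate 1 (0.0789). The opposite hemisphere did not differ from sham by the test in any of the 4 comparisons (0.15 and 0.24 at 3 months, 0.05 and -0.07 at 12 months). At 3 months, however, its arrays also lay above sham without overlap. They were at 5.38 to 5.57 on day 3 and 5.39 to 5.74 on day 14, against 5.20 to 5.36 in sham. The genes nearest to Slc1a5 were Myo7a, C8h11orf52 and Ptpn7 (r = 0.78 each over 30 arrays, and 0.77 to 0.81 within each age).

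Slc7a11 sat at the floor of the arrays. It lay above the 30th percentile on 3 arrays, 2 of the injured hemisphere on day 3 and 1 on day 14, all at 12 months, and it entered the test through these arrays alone, so that a difference there is built into the filter and its calls support nothing. At 12 months on day 14 the values were 4.34, 4.10 and 4.10 on the injured and 3.71, 3.66 and 3.56 on the opposite side (0.54 ± 0.12, limma, adjusted p = 0.00103), without overlap; set against the percentile of the dim side the difference is at least 0.01. On day 3 they were 4.30, 3.75 and 4.09 against 3.60, 3.80 and 3.49 (0.42 ± 0.12, adjusted p = 0.00618), with an overlap and no bound above 0; this call ended without injured replicate 1 (0.29, adjusted p = 0.0809). At 3 months both sides were dim, at 3.78 to 4.02 on the injured and 3.51 to 3.87 on the opposite side, and no fold is given. The injured side was higher in 5 of 6 animals at each age. At 3 months that count compares dim values, and at 12 months it uses the arrays that admitted the gene, so it supports nothing either.

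Against sham Slc7a11 differed at 12 months on day 14 by 0.39 ± 0.12 (adjusted p = 0.0145), or at least 0.03 with the dim sham set at its percentile, and this ended as a call without sham replicate 2 (0.0611) or injured replicate 1 (0.108). At 3 months the injured and sham groups were both dim, and no difference is given. Its nearest genes were Clec4a2 (r = 0.87), Fosl2 (0.82) and Amdhd2 (0.82).

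**Figure D3:**
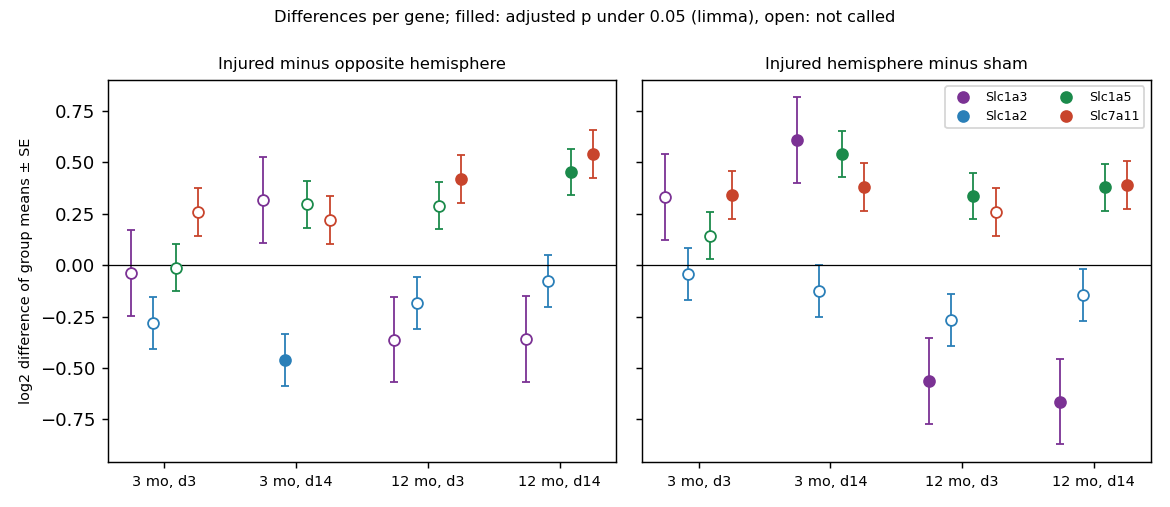
Log2 difference of group means (y axis, ± SE of the limma model, n = 3 arrays per group) for the 4 genes between the injured and the opposite hemisphere (left) and between the injured hemisphere and sham (right), by age and day (x axis). Filled points passed an adjusted p of 0.05. Slc1a3 lies at 0.33 and 0.61 against sham at 3 months and at -0.56 and -0.66 at 12 months; Slc1a5 lies above 0 in all 4 comparisons with sham, and the 3-month points of Slc7a11 compare groups that are both dim.

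The counts of calls are set beside the share of all genes called; 1 of the 4 genes, Slc7a11, was admitted by its high arrays. Between hemispheres 0, 1, 1 and 2 of the 4 were called (3 months days 3 and 14, 12 months days 3 and 14), where 20.4%, 20.3%, 28.7% and 16.8% of all genes were. For the injured hemisphere against sham the counts were 1, 3, 2 and 3 of 4, beside 56.8%, 34.4%, 37.1% and 20.0% of all genes; the count on each day at 3 months includes Slc7a11, compared between 2 dim groups. For the opposite hemisphere against sham they were 0, 1, 0 and 0, beside 51.6%, 38.7%, 1.28% and 0.00857%. Between day 14 and day 3, the injured side gave 1 and 0 (3 and 12 months; background 29.6% and 20.6%) and the opposite side 0 and 0 (10.1% and 1.06%). The differences of the hemisphere effect gave 0 of 4 between days at 3 and 12 months (3.81% and 5.34%) and 0 of 4 between ages on days 3 and 14 (1.58% and 0.00857%). At an unadjusted p under 0.05 the limma counts of these zeros were 2 between hemispheres at 3 months on day 3, 2 in the difference of the hemisphere effect between ages on day 14 (Slc1a3 and Slc1a2), and 0 in the others.

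The other genes of glutamate, glutamine and glutathione handling were read from 5 lists of 74 genes, of which 50 were tested. Between hemispheres 2 were higher and 5 lower at 3 months on day 3, 4 and 4 on day 14, 4 and 2 at 12 months on day 3, and 7 and 1 on day 14, which is 14.0%, 16.0%, 12.0% and 16.0% of the 50, below the share of all genes called in each. Their median changes were 0.01, -0.08, 0.02 and -0.03, beside -0.01 for all genes in each comparison.

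**Figure D4:**
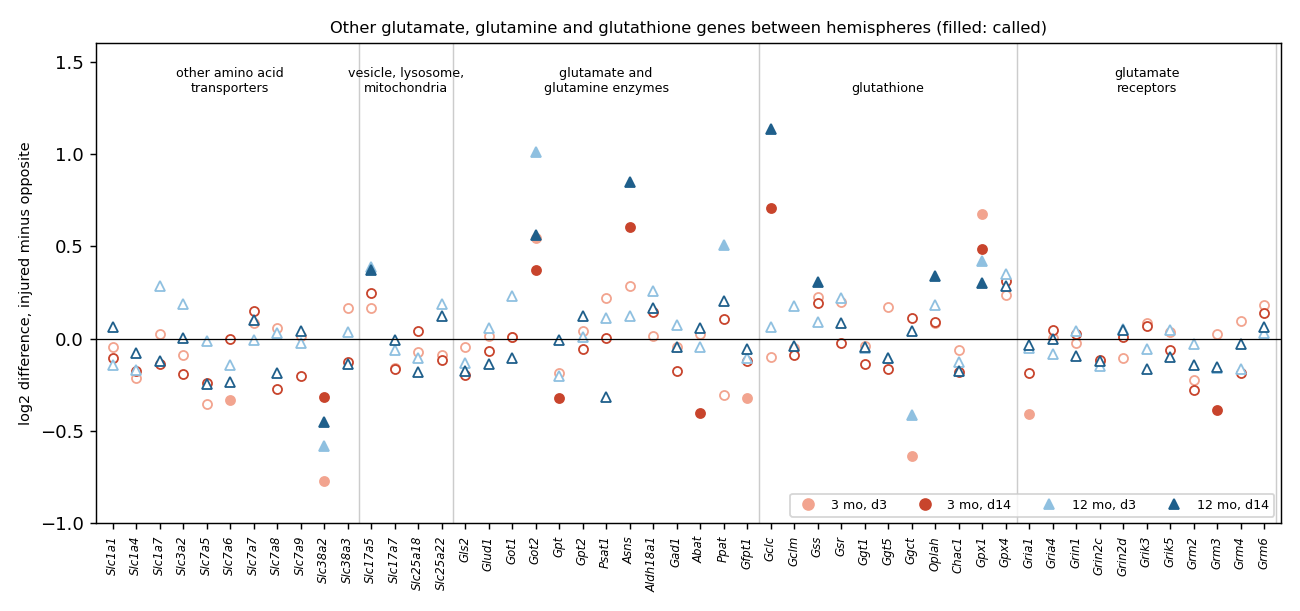
Log2 difference between the injured and the opposite hemisphere (y axis) for the 50 tested pathway genes (x axis), grouped by role; circles are 3-month and triangles 12-month rats, pale day 3 and dark day 14, and filled symbols passed an adjusted p of 0.05. Slc38a2 lies below 0 and Got2 and Gpx1 above 0 with all 4 symbols filled, and Gclc stands at 0.71 and 1.14 on day 14 and at -0.10 and 0.06 on day 3.

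Among 11 other plasma membrane transporters tested, Slc38a2, a sodium-coupled importer of glutamine and alanine, fell on the injured side in all 4 comparisons, by -0.77 and -0.32 at 3 months (days 3 and 14) and -0.58 and -0.45 at 12 months (SE 0.09 each; limma, adjusted p = 3.25e-07, 0.0147, 1.36e-05 and 6.65e-04), and it was lower in 12 of 12 animals. Its 3-month sham arrays lay at 10.86 to 10.94. On day 3 at 3 months the opposite arrays lay below these, at 10.47 to 10.64, and the injured arrays at 9.66 to 9.87. The only other call in this list was Slc7a6, lower at 3 months on day 3 (-0.33, adjusted p = 0.0247). No gene of the 11 was called higher. Slc3a2, the heavy chain that partners Slc7a11, changed by -0.19 to 0.19 and was not called.

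Of 13 enzymes of glutamate and glutamine, 1, 2, 2 and 2 were called higher and 1, 2, 0 and 0 lower (3 months days 3 and 14, 12 months days 3 and 14), beside 20.4%, 20.3%, 28.7% and 16.8% of all genes called in either direction. Got2, the mitochondrial aspartate aminotransferase, was higher on the injured than on the opposite side in all 4 comparisons and in 12 of 12 animals. The differences were 0.54 and 0.37 at 3 months and 1.01 and 0.56 at 12 months (SE 0.11 each, limma, adjusted p = 5.41e-04, 0.017, 3.99e-08 and 4.46e-04). At 3 months its mean was 7.36 in sham, 7.47 and 7.54 on the injured side (days 3 and 14) and 6.92 and 7.17 on the opposite side. At 12 months these means were 7.47, 8.43 and 7.92, and 7.42 and 7.36. Against sham at 3 months on day 3, 0 of the 13 enzymes were called higher and 4 lower in the injured hemisphere. In that comparison 56.8% of all genes were called in either direction. Asns, which makes asparagine and glutamate from aspartate and glutamine, rose on day 14 by 0.60 at 3 months (4.60, 4.99 and 4.97 against 4.25, 4.29 and 4.21; adjusted p = 0.00167) and by 0.85 at 12 months (5.22, 5.26 and 4.96 against at most 4.45; adjusted p = 2.88e-05). The gain from day 3 to day 14 was itself called at 12 months (0.73, adjusted p = 0.0209) and not at 3 months (0.32, adjusted p = 0.419). Ppat, which takes nitrogen from glutamine into purines, was higher on the injured side at 12 months on day 3 (0.51, limma, adjusted p = 0.00326). At 3 months on day 3 its difference had the other sign and was not called (-0.30, adjusted p = 0.105). The 12-month effect exceeded the 3-month effect by 0.81 (adjusted p = 0.0166).

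In the glutathione list, whose 11 genes were all tested, 1, 2, 1 and 4 were called higher and 1, 0, 1 and 0 lower, against the same background shares. Gclc, the catalytic subunit of the enzyme that joins glutamate to cysteine, showed the largest hemisphere difference of the list. At 3 months its mean was 8.17 in sham, 7.45 and 8.57 on the injured side (days 3 and 14) and 7.55 and 7.87 on the opposite side. At 12 months these means were 7.58, 7.56 and 8.72, and 7.50 and 7.58. On day 14 its arrays were 8.49, 8.91 and 8.32 on the injured side against 7.90, 7.76 and 7.93 at 3 months (0.71 ± 0.13, limma, adjusted p = 2.43e-04), and 8.88, 8.63 and 8.64 against 7.57, 7.65 and 7.52 at 12 months (1.14 ± 0.13, adjusted p = 2.14e-07). On day 3 the sides differed by -0.10 and 0.06 (adjusted p = 0.692 and 0.775). The hemisphere effect was larger on day 14 than on day 3 by 0.81 at 3 months (adjusted p = 0.012) and by 1.07 at 12 months (adjusted p = 4.50e-04), and its difference between the ages was not called on either day. Gclc was also lower in the 12-month than in the 3-month sham, by -0.59 (adjusted p = 0.00346). Gpx1, a glutathione peroxidase, rose in all 4 comparisons (0.67, 0.49, 0.42 and 0.30) and in 12 of 12 animals, the last ceasing to be called with the animal as a fixed block (adjusted p = 0.0648). Ggct, which breaks down gamma-glutamyl peptides, fell on day 3 at both ages (-0.63 and -0.42; adjusted p = 0.00228 and 0.0368).

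These changes ran beside those of markers of other immune cells, given for 3 and 12 months. On day 3, 8 and 7 of 8 monocyte and macrophage, 4 and 5 of 5 border-associated macrophage and 4 and 1 of 7 neutrophil markers were called higher on the injured side, and 0 lower. On day 14 the higher calls were 4 and 4, 1 and 1, and 1 and 0. The lower calls on day 14 were 0 and 0, 1 and 1, and 2 and 1. Of all genes, 20.4% and 28.7% were called on day 3 and 20.3% and 16.8% on day 14, in either direction. The part of these cells in the changes of Got2, Gpx1, Slc38a2, Asns, Gclc and Ppat was not tested.

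Slc17a5, a lysosomal sialic acid carrier that can also move acidic amino acids, rose at 12 months on days 3 and 14 (0.39 and 0.37; adjusted p = 0.00424 and 0.00917) and was the only gene called among 4 vesicle, lysosome and mitochondrial carriers. Of 11 glutamate receptor genes tested, 1 was called at 3 months on each day, Gria1 lower on day 3 (-0.41, adjusted p = 0.0168) and Grm3 lower on day 14 (-0.38, adjusted p = 0.0295), and 0 at 12 months (limma). In both calls the injured group was dim, at 3.63 to 3.89 for Gria1 and 3.92 to 4.09 for Grm3. The opposite means were 4.19 and 4.41, so these differences lie at the floor of the arrays. Without opposite replicate 1 the day 14 calls at 3 months of Slc38a2 (-0.28, adjusted p = 0.0653), Got2 (0.35, 0.0561) and Grm3 (-0.23, 0.229) ended, and those of Gclc, Asns and Gpx1 held. Other calls also ended when 1 array was left out. At 3 months on day 3 these were Slc7a6 (opposite replicate 1 or 3, injured 1 or 2; adjusted p up to 0.193) and Gria1 (opposite 1 or 2, injured 1; up to 0.104). On day 14 they were Slc38a2 (injured 2; 0.0888), Grm3 (opposite 3, injured 2; up to 0.113) and Got2 (opposite 3, injured 1 or 2; up to 0.106). At 12 months they were Ggct on day 3 (any array but injured 2; up to 0.13), and Slc17a5 (opposite 3 or injured 3; up to 0.0924) and Gpx1 (opposite 1, injured 1 or 3; up to 0.151) on day 14. Of the differences between days and ages, those of Gclc at 3 months (day 3 opposite 1 or injured 2; up to 0.0526), Asns at 12 months (day 3 injured 1 or 2, day 14 opposite 3 or injured 2; up to 0.0911) and Ppat (opposite 1 at 3 months, opposite 2 or injured 1 at 12 months; up to 0.0764) ended likewise. In the fit to the compared groups alone the 3-month calls of Slc7a6 (0.1), Gria1 (0.0581), Slc38a2 (day 14, 0.0927), Got2 (day 14, 0.0883) and Grm3 (0.11), the day 14 calls of Slc17a5 (0.0504) and Gpx1 (0.0726) at 12 months and the day difference of Gclc at 3 months (0.0994) ended too. Fitting 1 age ended those of Slc7a6 (0.0664), Got2 (day 14, 0.052), Grm3 (0.0713) and the day difference of Gclc (0.0629); array weights ended those of Gria1 (0.105) and Grm3 (0.0532), and renewed quantile normalization that of Grm3 (0.0765). The day 14 rises of Gclc and Asns at both ages, and the other hemisphere calls of Slc38a2, Got2 and Gpx1, held in every alternative run. Asns, Gria1 and Grm3 lay near background and were removed by the stricter filter, so that setting was not run for them.

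**Figure D5:**
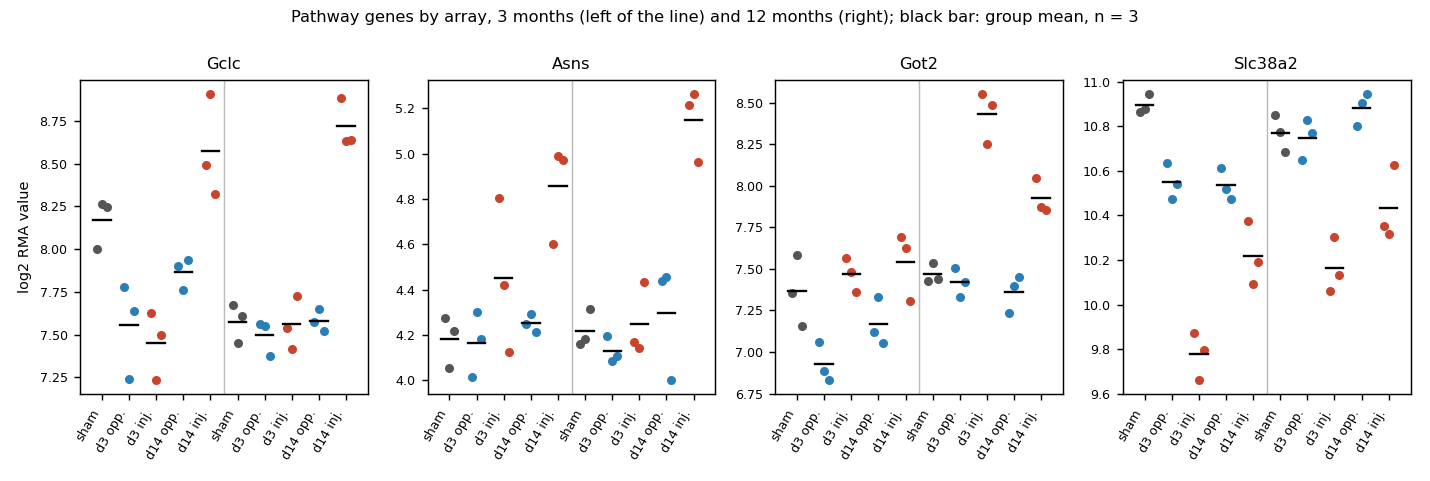
Log2 RMA values (y axis) of Gclc, Asns, Got2 and Slc38a2 on the 30 arrays in the 10 groups (x axis, 3 months left and 12 months right of the line; grey sham, blue opposite, red injured hemisphere); points are arrays and black bars group means (n = 3). On day 14 the injured arrays of Gclc lie at 8.32 to 8.91, above the opposite arrays at 7.52 to 7.93; Slc38a2 is lower on the injured side in every group pair.

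The 250 bases before the listed start are shown for Slc7a11, as the antiporter of the set, and for Gclc and Asns, as 2 of the pathway genes that rose on day 14 at both ages (RefSeq, GRCr8; chr2:136668265-136668514, minus strand; chr8:87510226-87510475, plus strand; chr4:36769416-36769665, minus strand). Capitals mark the same 5 motifs on either strand. Gclc holds TATAAA from base -244 and GGGCGG from base -75 before the start, and Asns holds 2 GGGCGG that share 1 base, from -86 and from -81. None of the 3 windows holds CCAAT, TGACNNNGC or TGATGNAA, and the Slc7a11 window holds none of the 5.
Slc7a11: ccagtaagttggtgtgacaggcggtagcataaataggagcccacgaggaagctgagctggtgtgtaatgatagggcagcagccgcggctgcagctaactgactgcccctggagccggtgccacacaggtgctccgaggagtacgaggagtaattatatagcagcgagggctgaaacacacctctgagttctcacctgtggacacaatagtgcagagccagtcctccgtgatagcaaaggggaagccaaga
Gclc: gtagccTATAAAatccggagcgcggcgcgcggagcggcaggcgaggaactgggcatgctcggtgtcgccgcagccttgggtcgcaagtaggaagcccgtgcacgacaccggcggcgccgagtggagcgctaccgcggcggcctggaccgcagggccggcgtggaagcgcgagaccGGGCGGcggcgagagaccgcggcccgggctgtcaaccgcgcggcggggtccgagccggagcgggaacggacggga
Asns: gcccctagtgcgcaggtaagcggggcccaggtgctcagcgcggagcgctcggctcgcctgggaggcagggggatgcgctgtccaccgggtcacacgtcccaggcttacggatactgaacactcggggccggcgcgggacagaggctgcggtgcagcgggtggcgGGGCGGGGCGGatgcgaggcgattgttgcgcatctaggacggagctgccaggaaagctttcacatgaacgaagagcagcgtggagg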

How the data were processed

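The authors deposited log2 expression values of 29214 probe sets on 30 Affymetrix rat gene arrays, made with Affymetrix Expression Console by RMA (versions not given), per the submitters' processing notes. They were used as deposited. Probe sets with 1 symbol were kept (15310); 323 with several and 13581 not listed were left out. A probe set was kept where it exceeded its array's 30th percentile on at least 3 arrays; each gene was tested on its probe set of highest mean.

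Group means were fitted with limma 3.58.1 (lmFit and eBayes; R 4.3.3) in 1 model of the 30 arrays (degrees of freedom: 20 residual, 8.8 prior). For each of 23 comparisons, p-values of the 11675 genes were adjusted by Benjamini-Hochberg; a call is an adjusted p under 0.05. On simulated data for injured minus opposite hemisphere at 3 months on day 3 (11675 genes, 200 of them changed), 63.0% of log2 changes of 0.5 and 98.0% of 1 were recovered, with 8 false calls. The noise was independent between arrays, without animal pairs or sample code numbers, and in the real comparison 20.4% of genes were called. These rates may therefore not carry over to the real arrays.

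The genes and lists were chosen with earlier results of these data known. Named genes are the 4 measured genes, for each the 3 of highest r, and in each list at most the 3 called genes of largest hemisphere change; marker genes likewise. Sample codes pair the hemispheres of 12 animals; deviations of the pairs from their group means correlated at -0.08 to 0.22. Whether the sham replicates were separate animals is not stated, so there p-values may measure technical spread. Arrays of 1 group correlated at 0.9865 to 0.9953. The number of arrays limits the precision. Alternatives were other filters, probe set means, animal blocks, smaller fits, renewed quantile normalization, a trended robust prior, array weights and each array left out.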

Additional observations from a re-analysis of the deposited data

Results flagged for a closer look

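The change of Slc1a3 in the injured hemisphere from sham differed between the ages, by a contrast added after its values had been seen. The 12-month change minus the 3-month change was -0.90 on day 3 (limma, adjusted p = 0.0126) and -1.27 on day 14 (adjusted p = 0.0051). With the dim 3-month sham set at its percentile, the differences are -0.77 and -1.14, which were not tested. At 12 months it was lower than sham on both days, and at 3 months the means were higher than a sham group that was dim on all 3 arrays. The sample code number differs between sham and stroke at 3 months and not at 12 months, and it cannot be told apart from this contrast. Dixon's test for a single array was not applied.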

How the results depend on the processing

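No result changed direction past its threshold. Of the alternatives for the 4 genes, 1430 kept the side of the threshold, 24 gained and 36 lost a call. The age difference of Slc1a3 in sham and both age contrasts of its change from sham held in every alternative.

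Counts of the 4 genes called moved as follows. Injured against opposite hemisphere at 3 months on day 14 (1 called) gave 0 under the stricter filter and in the fit to the compared groups alone, 2 with the animal as a fixed block and after renewed quantile normalization, and 0 to 2 with 1 array left out. At 12 months on day 3 (1) it gave 2 with the animal as a random or fixed block and in the fit to 1 age, 3 with array weights and 0 to 2 with 1 array left out; on day 14 (2) it gave 1 under the stricter filter and 3 with the animal as a fixed block. Injured against sham at 3 months on day 3 (1) gave 0 under the stricter filter and after quantile normalization, 2 in the compared groups alone and 0 to 1 with 1 array left out; on day 14 (3) it gave 1 to 3. At 12 months on day 3 (2) it gave 1 with the trended prior, 4 with array weights and 0 to 2 with 1 array left out; on day 14 (3) it gave 1 to 2. Opposite against sham at 3 months on day 3 (0) gave 1 in the compared groups alone and with array weights, and 0 to 1; on day 14 (1) it gave 0 under the stricter filter, in the compared groups alone, in 1 age and after quantile normalization, and 0 to 2. Day 14 against day 3 (1) gave 0 to 1. Pathway genes called at 3 months fell from 7 to 4 on day 3 (5 to 9 with 1 array left out) and from 8 to 4 on day 14 in the compared groups alone, and there to 5 under the stricter filter and in 1 age and 4 to 9 with 1 array left out; at 12 months on day 14 they fell from 8 to 4 in the compared groups alone and to 4 to 7 with 1 array left out, and rose to 10 with array weights. The causes were not tested, beyond the fewer arrays or genes that some settings leave. With 1 array left out of a group, the other arrays' spread stands for it. Slc7a11 and Slc1a2 lay near background and were removed by the stricter filter, and 3 arrays a group limit what can be called.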
